A study of Drosophila melanogaster with 2 samples.

Results

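The 10 genes described here, mub, elav, fne, Rbp9, mbl, how, Rbfox1, bru1, bru3 and Syp, encode RNA-binding proteins, and they were examined for binding of the zinc-finger protein D19B. They are 10 of 13968 annotated protein-coding genes. The group was chosen by a measured value, the height of a peak in an intron of mub, which is one of the tallest D19B peaks; signals are therefore given as a description. Its members carried 14 of the 4309 peak summits that passed the authors' irreproducible discovery rate (IDR) step, which compares the rankings of replicate libraries. A summit was assigned to a gene when it lay within 500 bp of a transcription start site (TSS), in the gene body from the outermost annotated 5′ to 3′ end, or within 5 kb of that body.

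Chromatin immunoprecipitation followed by sequencing (ChIP-seq) was carried out with an anti-GFP antibody on whole Drosophila melanogaster embryos of pooled sexes, aged 0 to 24 h. The embryos came from a stably transgenic line, strain D19B-GFP, in which GFP was fused to the C terminus of D19B. There were 2 libraries, biological replicates 2 and 3, in 1 group, from chromatin sonicated to fragments of 200 to 800 bp. The control library used in the authors' peak calling is not analysed here, and the promoter that drove the fusion protein is not given in the sources used here. In whole embryos, binding in fewer cells and weaker binding per cell cannot be told apart, and the lists name no tissue or hour of binding.

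RNA-binding proteins of these families act on transcripts after or during synthesis: they select splice sites and poly(A) sites, stabilise mRNAs, or hold back and localise translation. Members of the ELAV family mark neurons, the CELF, MBNL, RBFOX and STAR families are known for splicing in muscle and for work in the germline or nervous system, and several of their genes are long, with alternative promoters and large introns. The peaks here lie on the DNA of these genes, so they describe where D19B sat and not what the encoded proteins bind.

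The signal of a peak, called height here, is the authors' own value. It was deposited per region in a list for each library and a list for the libraries combined. Its exact definition is not given in the sources used here. Signals of different lists are not scaled to each other and read depth is unknown from these lists, so heights were compared within a list and ranks count from the tallest region. In the IDR list the signal ran from 117.1 to 15866 with a median of 199.5, and −log10 q ran from 2.88 to 3.80. The next signal below the list was also 117.1. All positions are dm6 coordinates, 1-based.

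The sequences under the peaks inside mub, how, Rbfox1 and bru1 and beside elav are printed because the results turn on these places. They were read on the plus strand, 5′ to 3′, from the RefSeq release 6 assembly. For mub, 241 bases are centred on the tallest summit; for elav, 300 bases run from the left edge of the region; the other windows hold the summit and 50 bases on each side. Capitals mark copies of 6 searched words on either strand: the word TATCGATA of the DREF factor and its core CGATA, the word ACAGGGTA from an earlier account of these peaks, the TATA-like word TATAAA, the GAGA factor word GAGAG and the E-box CAGCTG. On the opposite strand ACAGGGTA reads as TACCCTGT, GAGAG as CTCTC and TATAAA as TTTATA.
mub intron, chr3L:21880359-21880599: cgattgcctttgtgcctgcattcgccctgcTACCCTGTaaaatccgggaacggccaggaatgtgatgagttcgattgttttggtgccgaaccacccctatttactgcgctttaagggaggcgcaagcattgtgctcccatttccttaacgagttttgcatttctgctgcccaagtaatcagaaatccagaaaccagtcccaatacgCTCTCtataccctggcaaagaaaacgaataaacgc
elav upstream, chrX:523305-523604: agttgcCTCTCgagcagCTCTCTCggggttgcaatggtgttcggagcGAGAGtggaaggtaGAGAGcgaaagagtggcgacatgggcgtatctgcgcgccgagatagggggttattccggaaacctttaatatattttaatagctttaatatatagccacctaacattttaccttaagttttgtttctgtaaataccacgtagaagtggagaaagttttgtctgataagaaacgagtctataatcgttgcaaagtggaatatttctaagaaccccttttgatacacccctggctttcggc
how intron, chr3R:22049232-22049332: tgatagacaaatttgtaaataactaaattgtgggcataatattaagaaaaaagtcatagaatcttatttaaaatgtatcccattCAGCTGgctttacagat
Rbfox1 intron, distal, chr3L:10554662-10554762: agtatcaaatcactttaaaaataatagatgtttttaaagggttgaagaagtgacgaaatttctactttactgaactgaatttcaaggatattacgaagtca
Rbfox1 intron, near the outer TSS, chr3L:10482380-10482480: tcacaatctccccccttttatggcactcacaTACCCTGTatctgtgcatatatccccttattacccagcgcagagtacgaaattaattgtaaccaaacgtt
Rbfox1 intron, near the inner TSS, chr3L:10519089-10519189: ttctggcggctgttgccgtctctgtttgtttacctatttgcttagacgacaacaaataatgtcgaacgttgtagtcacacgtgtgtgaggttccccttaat
bru1 intron, chr2L:12212467-12212567: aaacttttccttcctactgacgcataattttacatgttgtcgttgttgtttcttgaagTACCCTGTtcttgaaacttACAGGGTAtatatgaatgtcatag

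The intronic peak of mub was the tallest of the group. mub (FBgn0262737) encodes a KH-domain protein of the poly(C)-binding family that was named for its expression in the mushroom bodies of the brain. The gene spans chr3L:21844788-21932702 on the plus strand, 87.9 kb, and its 12 annotated transcripts start at 2 TSSs. The summit at 21880479, in a region of 682 bp from 21880084 to 21880765, had a signal of 3712 and ranked 9 among 4309. It had a signal of 2324 in replicate 2, rank 13, and of 1398 in replicate 3, rank 7. The peak thus stood near the top of each library's own list. Its signal was 18.6 times the median of the IDR list, 4.26 times that of the next member summit and 23.4% of the tallest signal in the list. The summits of rank 8 and rank 10, nearest to the TSSs of Ank2 and CG4297, had signals of 3894 and 3676.

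The tall mub summit lay 902 bp downstream of the inner TSS at 21879577, which starts 8 of the 12 transcripts, and 538 bp past the exon there. The next exon began 8155 bp further on, and the position was intronic in 12 of 12 transcripts, in intron 1 or 2. A lower summit at 21879660 lay in the 5′ UTR, 83 bp from that TSS. It had a signal of 134.6 and ranked 3635, with a signal of 127.3 in replicate 2, rank 2307, and of 27.9 in replicate 3, rank 9186. The lower summit was therefore outside the 4309 tallest regions of replicate 3. The summits lay 819 bp apart, the regions 209 bp apart, and the intronic signal was 27.6 times the one at the TSS. The outer TSS at 21844788, which starts 4 transcripts, had no summit. A flanking summit at 21840350 with a signal of 491.5, and of 271.3 and 210.8 in replicates 2 and 3, lay 4438 bp upstream of mub. It was 223 bp upstream of a TSS of P5CDh1, a pyrroline-5-carboxylate dehydrogenase gene, so its assignment to mub rests on distance alone.

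**Figure D1:**
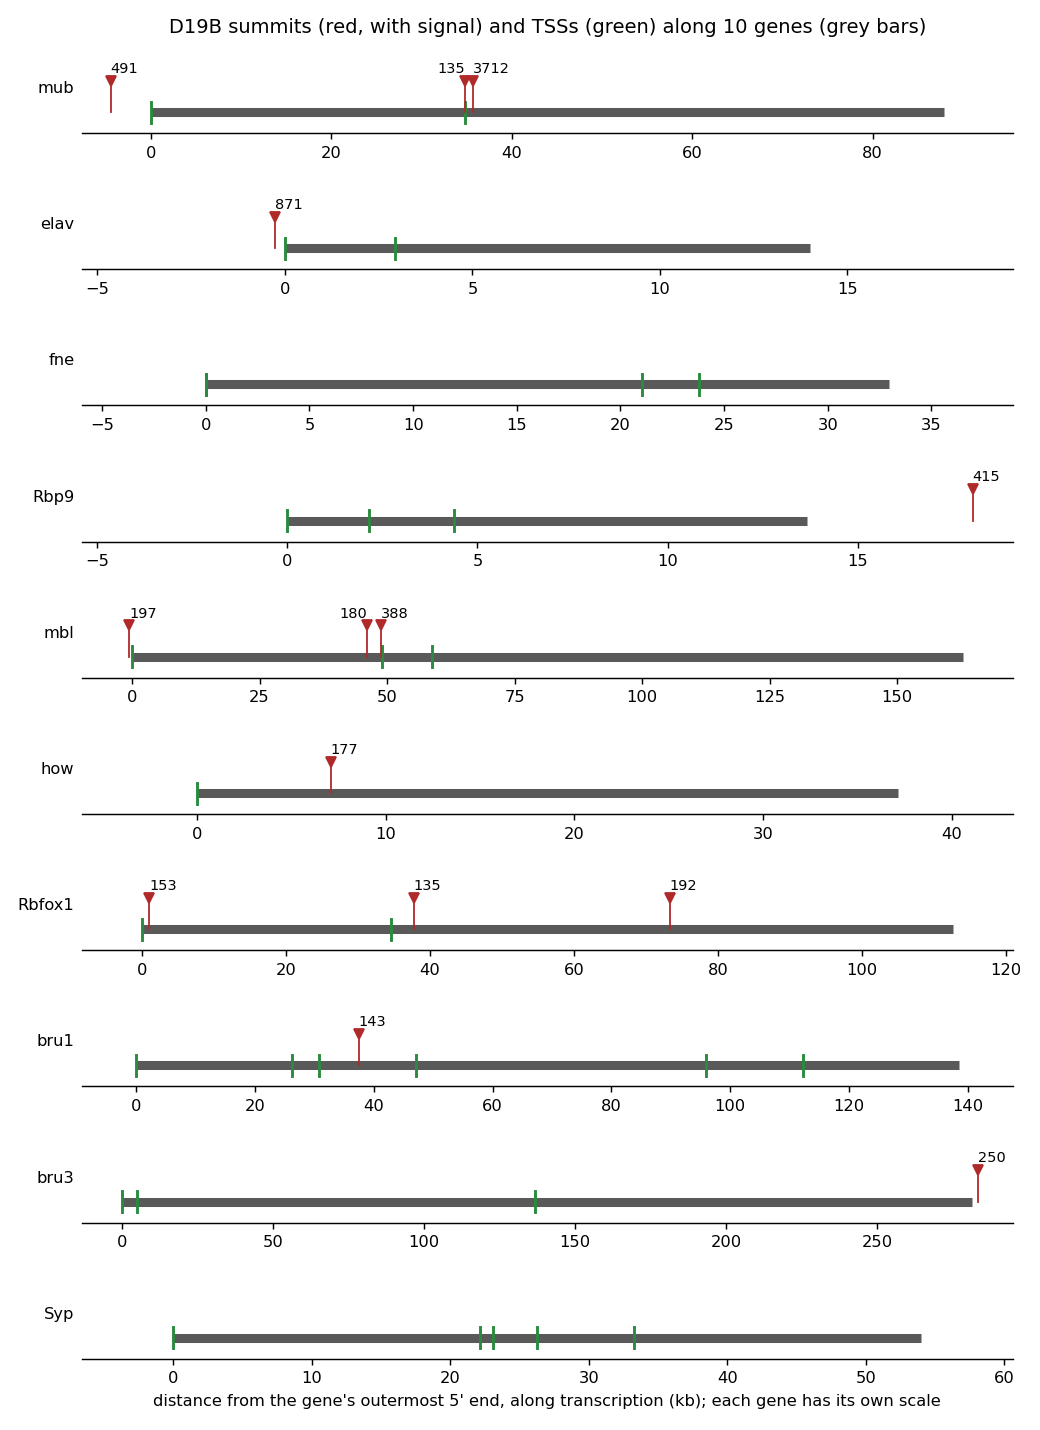
Places of the D19B summits (red, with the signal of both libraries together) and of the TSSs (green) along the 10 genes (grey bars); the x axis is distance in kb from the outermost 5′ end along transcription, with a scale of its own for each gene. Body summits were drawn in mub, mbl, how, Rbfox1 and bru1, flanking summits at mub, elav, Rbp9, mbl and bru3, and none at fne or Syp.

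Of the ELAV family, elav alone had a summit at a TSS. elav (FBgn0260400) encodes a nuclear RNA-binding protein of neurons that directs alternative splicing and poly(A) site choice; the gene spans chrX:509235-523226 on the minus strand, 14.0 kb. Its summit at 523480 had a signal of 871.4 and ranked 213. Replicate 2 gave 560.8, rank 229, and replicate 3 gave 315.0, rank 202, so the summit had a similar place in each list. It lay 254 bp upstream of the outer TSS, which starts 3 of 4 transcripts, within 500 bp of the long non-coding RNA gene lncRNA:enrr and in an intron of arg, the arginase gene. Both elav and lncRNA:enrr have a TSS within 500 bp of it, whereas arg only spans it with an intron. The peak cannot be given to 1 of these genes by position. No summit lay in the elav body. Its tallest body region, 580 bp downstream of a TSS, had a signal of 113.4 and ranked 4461, just below the end of the IDR list.

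The paralogues fne and Rbp9 had no summit at a TSS or in the body. fne (FBgn0086675) encodes a neuronal ELAV-family protein and spans chrX:12917477-12950417 on the plus strand, 32.9 kb, with 4 TSSs. Its tallest body region had a signal of 75.7 and ranked 7427, with 46.2 in replicate 2 and 33.6 in replicate 3. The nearest summit of the IDR list, 7744 bp outside fne, had a signal of 129.5 and lay closest to Brms1. Rbp9 (FBgn0010263) encodes an ELAV-family protein of neurons and the ovary and spans chr2L:2954762-2968434 on the plus strand, 13.7 kb, with 3 TSSs. Among 30000 regions listed for both libraries together, 1 lay in its body, with a signal of 52.4 and rank 12685. A flanking summit at 2972784 had a signal of 414.6, and of 266.0 and 144.7 in replicates 2 and 3. That summit lay 4350 bp past the end of Rbp9, 107 bp upstream of gammaTub23C, a gamma-tubulin gene, and 276 bp upstream of Rrp1, a DNA repair nuclease gene.

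Of the genes for other splicing regulators, mbl and Rbfox1 both carried intronic summits, and mbl had one at a TSS. mbl (FBgn0265487) encodes muscleblind, an MBNL-family splicing factor needed in muscle and photoreceptors; it spans chr2R:17216549-17379376 on the plus strand, 162.8 kb, with 19 transcripts and 3 TSSs. The summit at 17265315 had a signal of 387.8 and ranked 839, with 278.1 in replicate 2 and 107.4 in replicate 3. It lay 203 bp upstream of the TSS that starts 13 of the 19 transcripts, inside an intron of 1 longer transcript. A second intronic summit at 17262700 had a signal of 179.6, with 136.4 in replicate 2 and 43.2 in replicate 3. That one also lay in an exon of lncRNA:CR45997, 361 bp from the TSS of that gene. The summit at 17216017, 532 bp upstream of the outermost TSS and so just outside the 500 bp window, had a signal of 197.3 and of 171.5 in replicate 2. No summit of replicate 3 lay within 100 bp of it, which made it the 1 member summit of 14 without a match in both libraries.

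Rbfox1 (FBgn0052062) encodes the RBFOX-family splicing regulator and spans chr3L:10481412-10594012 on the plus strand, 112.6 kb, with 9 transcripts and 2 TSSs. It had 3 body summits in the IDR list, all intronic and none within 500 bp of a TSS, against 2 in mub. Among the 4309 tallest regions of replicate 2 alone, mub had 4 and Rbfox1 had 2. Among those of replicate 3 alone, mub had 1 and Rbfox1 had 4, so the libraries differed in this order. The summit at 10554712, 38709 bp from the nearest TSS of Rbfox1, had a signal of 191.9, with 113.3 and 77.6 in replicates 2 and 3. The summit at 10482430, 1018 bp downstream of the outer TSS, had a signal of 152.6, with 83.9 and 63.9. The summit at 10519139, 3136 bp downstream of the inner TSS, had a signal of 135.5, with 73.4 and 68.8. All 3 lay below the median signal of the IDR list. At the inner TSS, which starts 7 transcripts, the tallest listed region had a signal of 75.1 and ranked 7492, outside the IDR list.

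how (FBgn0264491) encodes held out wings, a STAR-family protein with a KH domain that regulates splicing and mRNA stability in muscle, tendon and glia. It spans chr3R:22042191-22079321 on the plus strand, 37.1 kb, and its 6 transcripts share 1 TSS. Its summit at 22049282 had a signal of 176.8 and ranked 2562, with 128.4 in replicate 2 and 51.3 in replicate 3. It lay 7091 bp downstream of the TSS in intron 2, which is 19345 bp long, in 6 of 6 transcripts. At the TSS of how the tallest listed region had a signal of 45.3 and ranked 16045, far below the IDR list.

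The CELF genes bru1 and bru3 had no summit at any of their TSSs. bru1 (FBgn0000114) encodes Bruno, which represses translation of oskar mRNA in the oocyte and directs splicing in flight muscle; it spans chr2L:12175004-12313438 on the plus strand, 138.4 kb, with 6 TSSs. Its summit at 12212517 had a signal of 143.2, with 76.3 in replicate 2, rank 4545, and 66.3 in replicate 3, rank 2368. The summit was intronic in 5 of 11 transcripts, 6674 bp from the nearest TSS of bru1 and 4598 bp from that of CG31759. bru3 (FBgn0264001) encodes another CELF-family protein, spans chr3L:13521907-13803400 on the minus strand and, at 281.5 kb, is the longest member. No summit lay in its body, where the tallest region had a signal of 77.1 and ranked 7262. A flanking summit at 13520088, 1819 bp past its end and 483 bp upstream of CG10710, had a signal of 250.4, with 145.1 and 108.7 in replicates 2 and 3.

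Syp (FBgn0038826) encodes Syncrip, an hnRNP-family protein that works opposite Imp in the timing of neural stem cell fates. It spans chr3R:20756729-20810726 on the plus strand, 54.0 kb, with 20 transcripts and 5 TSSs. No summit lay in it or within 5 kb. The tallest of 4 body regions listed for both libraries together had a signal of 68.1 and ranked 8510. The list of replicate 2 held 0 regions in Syp and that of replicate 3 held 12, and 2 of the 4 combined regions had a match in replicate 3. The nearest summit, 8314 bp away, had a signal of 280.5 and lay closest to CG17270.

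**Figure D2:**
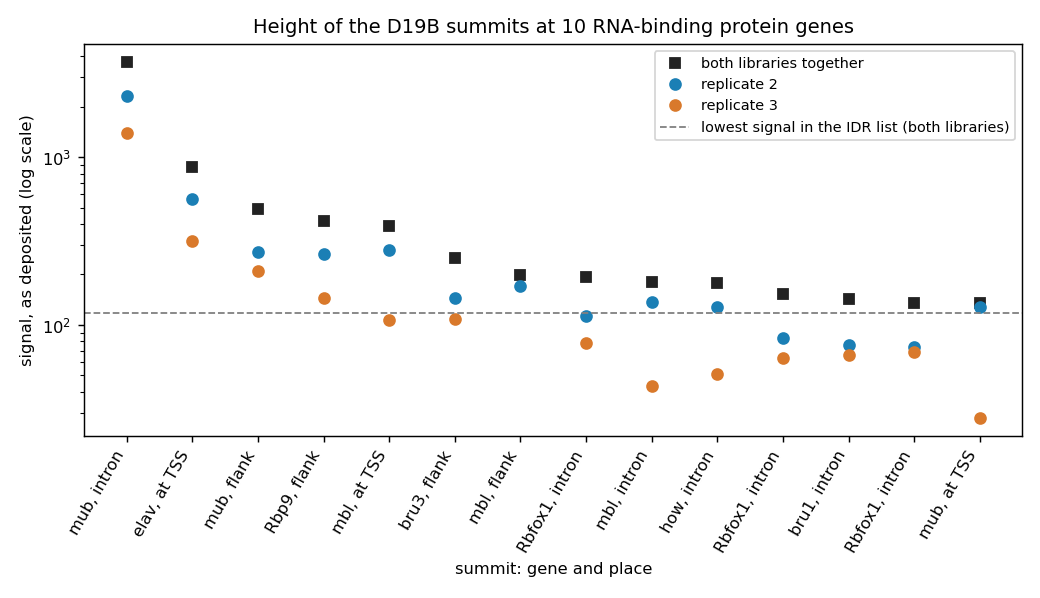
Signal of the 14 summits (log scale) for both libraries together (black), replicate 2 (blue) and replicate 3 (orange); the dashed line is the lowest signal in the IDR list, which applies to both libraries together. The mub intron peak, at 3712, stands above the elav peak, at 871.4, and the other summits lie between 134.6 and 491.5.

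By place, 3 of 10 members (mub, elav and mbl) had a summit within 500 bp of a TSS, against 15.3% of all protein-coding genes and 23.4% of the 1020 protein-coding genes of at least 20 kb. Counted by TSS, 3 of 31 member TSSs had a summit, against 13.8% of 19275 TSSs of protein-coding genes. The mub call rests on replicate 2: ranked by replicate 3 alone, 2 members had a TSS summit. Closest inside the window were mub at 83 bp, mbl at 203 bp and elav at 254 bp, and closest outside it were mbl at 532 bp and mub at 902 bp.

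A summit lay in the body of 5 of 10 members (mub, mbl, how, Rbfox1 and bru1), against 11.6% of all protein-coding genes and 50.5% of those of at least 20 kb. Of the 10 members, 8 were at least 20 kb long, and the member share was close to that of long genes. In the body or within 5 kb, 8 of 10 members had a summit, against 43.6% of all and 65.2% of long protein-coding genes. The farthest flanking summits inside 5 kb were those of Rbp9 at 4350 bp and mub at 4438 bp; beyond it came fne at 7744 bp, Syp at 8314 bp and, as the next one for elav, 9436 bp. Each of the mub, Rbp9 and bru3 flanking summits lay nearer to the TSS of a neighbouring gene than to its own member.

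Of the 9 body summits, 8 were intronic and 7 of these lay more than 500 bp from any TSS of their gene. The same shares among the 2639 IDR summits in bodies of protein-coding genes are not given here. This placement is therefore a description, and whether it is particular to the group was not tested. The 9 body summits had a median signal of 176.8, and 7 of 9 were below the median of the IDR list, 199.5. That list covers peaks in and outside gene bodies. Over all 14 member summits, in bodies or flanks, the median was 194.6, near that of the list. The height of the mub peak chose the group, so its standing above the other members was set by that choice. Over 935.0 kb of gene body, the members held 0.963 summits per 100 kb, against 2.47 in long protein-coding genes and 2.89 in all protein-coding genes. This pooled value rests in part on bru3, and without it the other 9 members held 1.38 per 100 kb. Taken gene by gene, the order was the opposite: the median was 0.98 per 100 kb over the 8 long members against 0.69 over long protein-coding genes, and 0.36 over the 10 members against 0 over all protein-coding genes. The last 0 was fixed in advance, because only 11.6% of protein-coding genes had a body summit. Of the long genes, 49.5% had 0 summits, so their median lay close to that step. The long members are few, and fne, bru3 and Syp among them had none. In the list of 30000 regions, which holds background as well as peaks, the members had 23.0 regions per 100 kb, against 22.7 and 21.9. At the edge of the IDR list, the lowest member summits were bru1 (143.2), Rbfox1 (135.5) and mub (134.6), and the tallest member regions left outside were mub (114.4), mbl (113.9) and elav (113.4).

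Members of like length differed. Rbfox1 had 3 body summits and bru1 had 1, whereas the 77 other protein-coding genes between 4/5 and 5/4 of the length of Rbfox1 had a median of 1 and 31.2% had 0; members were left out of these counts. bru3 had 0. Of the 3 other genes of like length, Ten-a had 2 and kl-3 and Ppr-Y had 0. These genes are too few to say whether an empty body is usual at that length. Syp had 0, as did 47.7% of 222 other genes of like length, so an empty body was common at that length.

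**Figure D3:**
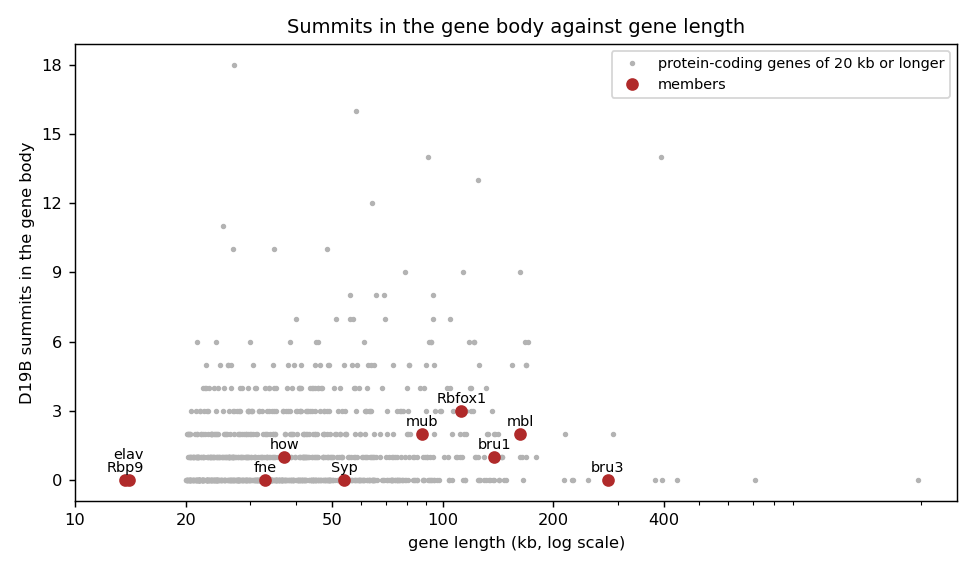
Number of D19B summits in the gene body against gene length (log scale, kb) for the protein-coding genes of at least 20 kb (grey) and the 10 members (red). The members hold 0 to 3 summits, and other genes of like length reach more.

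At the summits of the IDR list, the libraries mostly gave the same places. The IDR step compares the rankings of the libraries, so a match in both is partly built into its list. Of the 14 summits, 13 had a summit within 100 bp in both libraries, against 86.7% of all IDR peaks. In 13 of those 13 the signal was higher in replicate 2, as was usual in these unscaled lists: the median ratio of replicate 2 to replicate 3 was 1.66 for the members and 1.91 for the 3734 peaks with both heights. Among members the ratio ran from 1.07 at the Rbfox1 summit near the inner TSS to 4.57 at the mub TSS. The 3 Rbfox1 summits and the bru1 summit had ratios of up to 1.46, and the how summit, the mbl summits with both heights and the mub TSS summit had ratios from 2.50 upward.

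**Figure D4:**
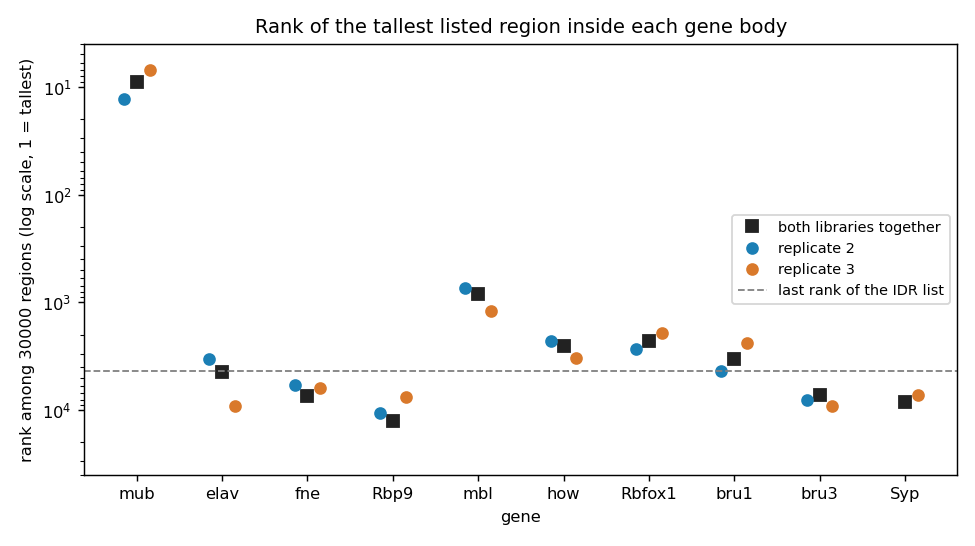
Rank of the tallest listed region inside each gene body (log scale, 1 is the tallest) in the list of both libraries together (black), replicate 2 (blue) and replicate 3 (orange); the dashed line is the last rank of the IDR list, 4309. mub ranks 9, 13 and 7, whereas fne, Rbp9, bru3 and Syp lie beyond 4309 in each list that holds a region; Syp has no region in replicate 2.

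Copies of the searched words were then counted at the 14 summits. In such windows of the summit and 50 bases on each side, ACAGGGTA was found in 2 of 14, those of Rbfox1 near the outer TSS and of bru1, against 2.97% of all IDR windows and 0.0464% of windows centred 500 bp to a side. In the whole regions it was found in 3 of 14, against 6.92% of IDR regions; the third was the mub intron region, where the word starts at −90 bp from the summit. The bru1 window printed above holds a copy on each strand with 11 bp between them, and of 4309 windows it was the 1 with more than 1 copy. TATAAA was found in 2 of 14 windows (22.5% of all), CGATA in 1 (13.3%), CAGCTG in 1 (2.74%), and GAGAG (8.73%) and TATCGATA (0.998%) in 0. In the whole regions GAGAG was found in 8 of 14 (37.6% of IDR regions), TATAAA in 6 (50.5%), CGATA in 5 (41.0%), CAGCTG in 3 (15%) and TATCGATA in 0 (3.69%). CGATA lies within TATCGATA, so these counts overlap. With 14 windows, shares this low are known only roughly, and a match is a description of the letters there.

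In the elav sequence printed above, the 5 CTCTC and GAGAG copies sit in the left part, on the side of the gene. The region holds 2 more, overlapping copies past the printed stretch on the other side, at 127 and 129 bp from the summit. GC content of the member windows ran from 18.8% to 51.5% with a median of 33.7%, against 32.7% for all IDR windows and 43.6% for those to the side. The window at the mub intron summit had 49.5%, near the upper end of this range.

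The wider list of RNA-binding protein genes gives the setting. It named 73 genes, of which 71 were matched, the 10 members and 61 others; 1 name was a second name of a listed gene and 1 was not matched. Of the others, 19 of 61 had a summit at a TSS, 31.1% with an exact 95% interval of 19.9% to 44.3%, against the 15.3% of all protein-coding genes. A body summit was found in 17, 27.9% with an interval of 17.1% to 40.8%, against 11.6% of all and 50.5% of long protein-coding genes; 14 of the 61 were at least 20 kb long. The members' 30% at a TSS had an interval of 6.67% to 65.2%. These intervals cover counting error only. The list was chosen with earlier results of these data known, so its shares are descriptions and no test of the set was made. In 11 of the 19, another gene had a TSS inside the same 500 bp window. The same share among all protein-coding genes with a TSS summit was not computed, so this count is no trait of the list.

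By class, a TSS summit was found in 1 of 3 ELAV genes, 3 of 13 KH-domain genes, 0 of 3 CELF genes, 1 of 2 MBNL and RBFOX genes, 1 of 2 Musashi genes and 5 of 9 hnRNP genes. It was also found in 3 of 10 SR genes, 4 of 13 genes of translation and mRNA localisation, 2 of 8 genes of sex determination and m6A, and 2 of 8 core splicing genes. The tallest among non-members belonged to msi, a Musashi-family gene for a translational regulator of neural precursors. Its summit, 238 bp upstream of the TSS, had a signal of 3176 and ranked 17, with 2444 in replicate 2 and 741.8 in replicate 3. It came close to the mub intron peak in height but, unlike it, lay within the TSS window. Tall body summits outside the window were found in other listed genes too. That of x16, an SR gene, had a signal of 2664, rank 25, 1249 bp downstream of its TSS and 218 bp from that of nop5. That of bol had a signal of 958.3, rank 184, 1030 bp downstream of its TSS.

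The other non-members named for a TSS summit were the 2 tallest of each class, and their signals were lower than that of msi. SF2, an SR splicing factor gene that shares its summit with pad, had 736.9, and B52, another SR gene, had 259.6. Among genes of translation, shep had 405.5 and orb, a CPEB gene that shares its summit with Cdc16, had 334.5. U2af50, for the large U2AF subunit, shares its summit of 386.8 with PIG-Q, and SF1, for the branch-point factor, which shares its summit with a neighbouring gene, had 163.3. Sxl, the master gene of female sex determination, had 302.5, and fl(2)d, for a subunit of the m6A writer complex, shares its summit of 203.8 with CG13339. Of the KH genes, qkr58E-3 had 306.9, shared with PolE4, and qkr54B had 136.4, shared with Tes, and of the hnRNP genes, sm had 266.8 and Hrb27C had 202.2. All of these lay between the lowest signal of the 19, 130.8, and that of elav, 871.4. No summit of replicate 3 lay within 100 bp of the U2af50 summit, whereas the others named here had a match in both libraries. In replicate 3 the signal was as low as 22.5 at sm and 31.3 at Hrb27C.

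**Figure D5:**
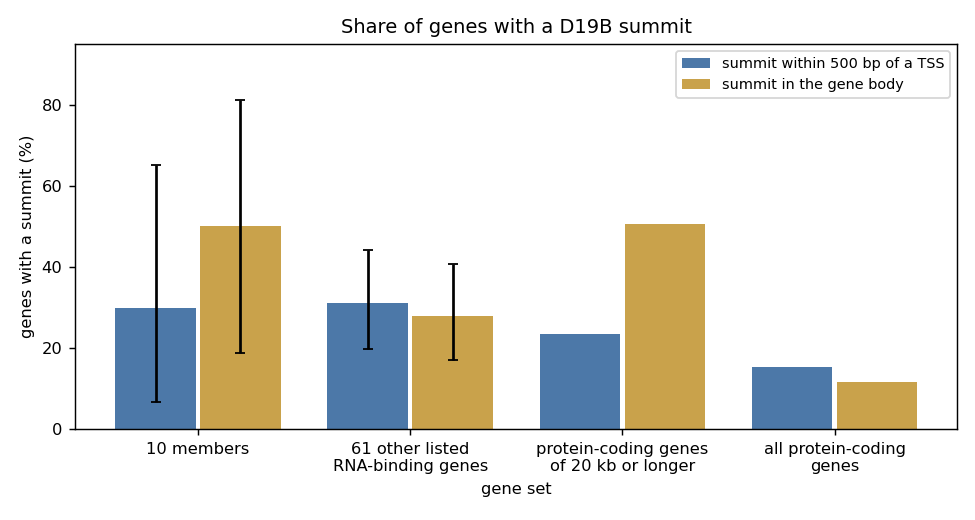
Share of genes (%) with a summit within 500 bp of a TSS (blue) and in the gene body (yellow) for the 10 members, the 61 other listed RNA-binding protein genes, the protein-coding genes of at least 20 kb and all protein-coding genes; error bars are exact 95% binomial intervals, drawn for the first pair of sets. The members stand at 30% and 50%, near the 23.4% and 50.5% of long genes.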

How the data were processed

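ChIP-seq peak lists of 2 libraries in 1 group were used. The authors made lists of 30000 regions, peaks with background, from either library and from the libraries combined, and used these as input for an IDR step, per the file records. The deposited signal of a region, called height here, is the authors' own value. The deposited −log10 q is their caller's value, and the deposited summit is an offset, in bp, within its region. Not given in the sources used here: aligner, peak caller, IDR threshold and scaling. Lists on build dm3 were not used here. Genes came from Ensembl release 115 (FlyBase 6.54) without transposable elements, and sequence from release 6 of the assembly. Python 3.11.15, numpy 2.4.6, scipy 1.17.1 and matplotlib 3.10.9 were used, and the assignment of summits was checked on simulated data.

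Library summits were matched within 100 bp. Non-members named for a TSS summit are the 2 genes of each class with the tallest one, and x16 and bol are named for body summits. The members and lists were chosen with earlier results of these data known, so no test was made; all values are descriptions. Intervals are exact Clopper-Pearson.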

Additional observations from a re-analysis of the deposited data

How the results depend on the processing

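Of 46 recomputed values over 11 results, 31 stayed within a set tolerance and 15 moved; the tolerance was 1.5 times the value or, for shares of genes, their exact 95% interval, which is wide for the 71 listed genes and narrow for all protein-coding genes. With a TSS window of 200 bp, 1 member (mub) had a TSS summit, as did 16.9% of the listed RNA-binding protein genes and 9.26% of protein-coding genes; with 1000 bp, 42.3% of listed and 18.3% of protein-coding genes did and the members were again mub, elav and mbl. A flank of 10 kb took in all 10 members. The share of protein-coding genes at that flank was not computed, and it cannot be lower than the 43.6% at 5 kb. The pooled density of body summits, 0.963 per 100 kb, was 1.38 without bru3 and 0.36 as a median over the members, settings chosen after seeing the data. Among the 2154 tallest peaks, 2 members had a body summit and 5 a body or flanking summit. For these counts the share of protein-coding genes was not computed. Those peaks gave 2 body summits and 6 in all, with a median body signal of 2050.1 over the 2 body summits. They gave TSS summits at 18.3% of the listed genes and 8.93% of protein-coding genes. Ranked by 1 library alone, the share of protein-coding genes ran from 12.8% to 16.3% and the median body signal from 66.3 to 120.3, the lists being unscaled. Ranked by replicate 3, mub lost its TSS summit; ranked by replicate 2, bru1 had no summit and elav gained one in its body. The mub intron peak ranked 7 in replicate 3 and 13 in replicate 2. The cause of these moves was not tested, beyond what each setting itself removes. No paired analysis was possible because there is 1 group. Depth is unknown, so a gene without a summit is one without a listed peak, not one shown to be unbound.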
